A study of Mus musculus with 2 samples.

Results

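The genes of 4 cysteine proteases (Ctsb, Ctsk, Ctsl and Ctss) and of 4 proteins from the inhibitor families that act on them (Ctla2a, Ctla2b, Cst3 and Cst6) were followed across the cells of mouse dorsal skin. They are 8 of the 33904 genes in the count matrices and were taken by gene symbol, each of which occurs in 1 row. The set was chosen by earlier results of these same data, in which Ctla2a was among the genes with the largest excess of the AD library over the Ctrl library in fibroblasts. The ratio of Ctla2a in fibroblasts, and every other ratio between the 2 libraries in the same cells, is therefore given as a description with no test.

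Cathepsins are proteases of the lysosome that cut proteins taken up by the cell or delivered from within it, and some are also secreted. Cathepsin K is known for its cleavage of collagen and elastin, cathepsin S for its work on the invariant chain in cells that present antigen, and cathepsins B and L are made in most cell types. Cystatin C (Cst3) and cystatin E/M (Cst6) are secreted inhibitors of these enzymes, and the latter is known for its role in the cornifying epidermis. CTLA2 alpha and beta, first found in activated T cells, resemble the propeptide that keeps cathepsin L inactive, and CTLA2 alpha inhibits cathepsin L-like enzymes.

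Single-cell RNA-seq was made from 1 Ctrl library and 1 AD library, both from female C57BL/6J mice of 7 weeks whose backs had been depilated with cream. The Ctrl skin received 100% ethanol daily. The AD skin received MC903 in the same vehicle, 100% ethanol, at 4.5 nmol per application. MC903 is calcipotriol, a vitamin D analogue that induces dermatitis resembling atopic dermatitis. Skin of both groups was collected on day 10. How many mice went into a library is not given in the sources used here. With 1 library per condition no test was possible, mouse to mouse variation was not measured, and every 95% interval below (exact Poisson for a level, exact Clopper-Pearson for a share of cells, conditional binomial for a ratio) covers counting error only.

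After the cell filter the Ctrl library held 11399 cells and 105195951 UMIs (distinct transcript molecules), with a median of 7813 per cell, and the AD library held 8179 cells and 61645227 UMIs, with a median of 6330. Cells were assigned to 14 classes when at least 3 of the 8 markers of a class had a UMI and no other class came within 2 markers, which left 18.2% of Ctrl and 19.2% of AD cells unassigned. Fibroblasts were 6168 cells in Ctrl and 4746 in AD and carried on average 7.01 and 5.43 of their 8 markers, so most of the markers of the label were detected in both libraries. The summed level of these 8 markers was nonetheless 43146 CPM in Ctrl against 12351 in AD, where CPM is UMIs of a gene per 1000000 UMIs of the cells concerned. When the cells of both libraries were clustered together (Leiden), 9 of the 11 fibroblast clusters, with 97.8% of the clustered fibroblasts, took at least 90% of their cells from 1 library. Every fibroblast ratio below therefore compares cells that fell largely into separate clusters. No doublet caller was used. The marker rule kept mixed cells in which 1 class led by enough markers. Cells with 2 or more markers of a second class were left out only in the alternative called without mixed cells. Fibroblast markers averaged 2.13 in Ctrl and 0.83 in AD blood endothelial cells, 2.67 and 1.10 in keratinocytes and 1.94 and 0.59 in macrophages. This alternative therefore does not fall evenly on the 2 libraries and is not a removal of doublets alone. The cells it left in each library are not given here. Of the barcodes, 29 occurred in both libraries. CPM is not divided by transcript length, so levels are compared between libraries and cell classes and not between genes.

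On the GRCm38 assembly (GENCODE M21, in which all 8 identifiers of the count matrices are present), Ctla2a lies at chr13:60934155-60936625 and Ctla2b at chr13:60895350-60897447, both on the minus strand and 36707 bases apart. Ctsl lies on the same chromosome at chr13:64359337-64370890 (minus strand). Ctsk at chr3:95499256-95509362 and Ctss at chr3:95526786-95556403 are neighbours on the plus strand, 17423 bases apart. Ctsb is at chr14:63122462-63145923 (plus strand), Cst3 at chr2:148871722-148875692 (minus strand) and Cst6 at chr19:5344705-5349574 (minus strand). All 8 are protein-coding genes.

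The Ctla2 pair is shown by sequence because the copies resemble each other, which bears on how their reads were told apart. The 200 bases before each start site, from RefSeq on GRCm38.p6, are printed 5′ to 3′ on the strand of the gene, at chr13:60936626-60936825 for Ctla2a and at chr13:60897448-60897647 for Ctla2b. Capitals mark the longest stretch found in both, 36 bases.
Ctla2a: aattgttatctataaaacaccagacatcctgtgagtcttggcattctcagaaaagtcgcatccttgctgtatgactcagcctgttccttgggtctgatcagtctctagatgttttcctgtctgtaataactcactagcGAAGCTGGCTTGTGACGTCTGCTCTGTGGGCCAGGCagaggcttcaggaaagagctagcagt
Ctla2b: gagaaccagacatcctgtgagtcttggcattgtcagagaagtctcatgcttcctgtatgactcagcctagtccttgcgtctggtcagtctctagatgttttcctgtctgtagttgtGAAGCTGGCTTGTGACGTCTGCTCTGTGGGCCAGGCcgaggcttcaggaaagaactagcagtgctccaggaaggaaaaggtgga
Over 182 aligned positions of these windows, 161 (88.5%) were identical. Each RefSeq promoter window holds 300 bases, 50 of them after the start, and Ctla2a has 2 such windows for 2 start sites. The letters TATAAA, searched on both strands, occurred at the same site in both windows of Ctla2a, which overlap. This site lies 190 bases before the start used above and 249 before the other. These letters also occurred in the window of Ctss, on the opposite strand, and in 13.6% of the 32817 windows. They were not in the window of Ctla2b. An AGGTCA pair with 3 bases between the copies, the classical response element of the vitamin D receptor, was searched on both strands and matched in 2 of the 32817 windows and in none of the 7 windows of the 6 members that had one (Ctsb and Cst6 had no entry). The E-box CACGTG, the core letters of the lysosomal gene motif, occurred in 7.15% of the windows and among the members in that of Ctsl.

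The transcripts of the pair also resemble each other, with 93.4% identity over 707 aligned positions of Ctla2a-201 and Ctla2b-201. The last 400 bases of Ctla2a-201, from which a 3′ library takes most reads, share no more than 9 bases in a row with Ctla2b-201. The last 400 bases of Ctla2b-201 align with Ctla2a-201 over 265 positions at 90.2% identity, with up to 47 identical bases in a row. How the counting treated reads that match both copies was not tested, so the counts of Ctla2b are uncertain.

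Among the 6 members that reached 10 CPM in fibroblasts of either library, Ctla2a, Ctsk and Ctsl were at least 2-fold higher in AD, Cst6 was at least 2-fold lower, and Ctsb and Cst3 lay between. Ctla2b and Ctss did not reach the minimum. Of all 9254 genes that reached it, 6.68% were at least 2-fold higher and 13.5% were at least 2-fold lower, and the median log2 ratio was -0.10. The members were picked with this contrast in view, so nothing is read from the count.

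**Figure D1:**
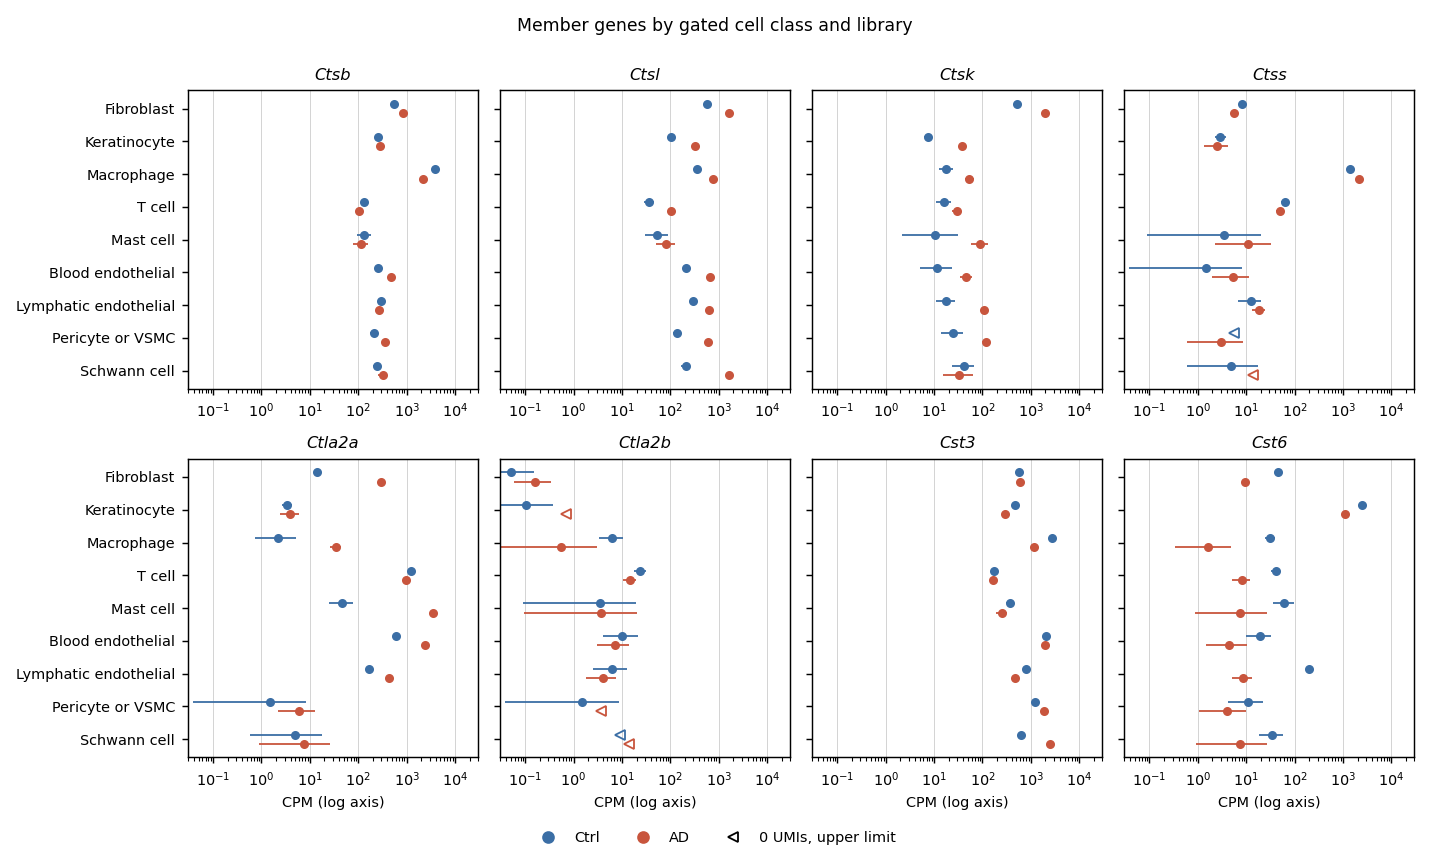
CPM of the 8 members (x axis, log scale) in the 9 classes with at least 50 cells in both libraries, Ctrl in blue and AD in red. Bars are exact 95% Poisson intervals for counting error and open triangles stand at the upper limit where a class had 0 UMIs. Ctla2a in fibroblasts stood at 14.1 CPM in Ctrl and 290.3 in AD, while in T cells it stood at 1258 and 966.

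Ctla2a in fibroblasts was at 14.1 CPM in the Ctrl library (13.2 to 15.1, 820 UMIs) and at 290.3 CPM in the AD library (285 to 296, 10900 UMIs). Taken as AD over Ctrl, this gave a log2 ratio of 4.36 (4.26 to 4.47), or 20.6-fold. With 1 CPM added it ranked 5 among 2062 genes that reached 100 CPM in one of the libraries, after Saa3, Cyp24a1, Prg4 and Chchd10. Among the 9254 genes that reached 10 CPM it ranked 9. A Ctla2a UMI was found in 4.99% of Ctrl fibroblasts (4.46 to 5.57) and in 13.9% of AD fibroblasts (12.9 to 14.9), at median depths of 8613.5 and 7017.5 UMIs. Among keratinocytes, taken as the background class, the shares were 1.89% and 3.80%, at median depths of 13365.5 and 10503.5 UMIs. After each cell had been thinned to 1000 UMIs, the fibroblast shares were 1.07% and 5.83%, and the keratinocyte shares were 0.222% and 0.289%.

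Most of the Ctla2a RNA of the AD fibroblasts sat in few cells. In AD, 162 fibroblasts (3.41%) had 10 or more Ctla2a UMIs and held 90.0% of the fibroblast total, and the highest cell had 649. In Ctrl, 13 fibroblasts (0.211%) had 10 or more, and the highest had 50. The 13 Ctrl cells carried T cell markers at a summed 871 CPM, against 97.5 CPM in Ctrl fibroblasts with 1 to 9 Ctla2a UMIs and 10.98 CPM in those with none. The 162 AD cells carried them at 7.84 CPM, against 16.7 CPM in AD fibroblasts with 1 to 9 Ctla2a UMIs and 4.69 CPM in those with none. Blood endothelial markers were at 57.7 CPM in those 162 cells and at 59.8 CPM in the AD fibroblasts without Ctla2a. The 162 cells had on average 6.85 of 8 fibroblast markers. Without all fibroblasts that had a UMI of a T cell marker, a selection added after the values were seen, the log2 ratio was 4.78.

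**Figure D2:**
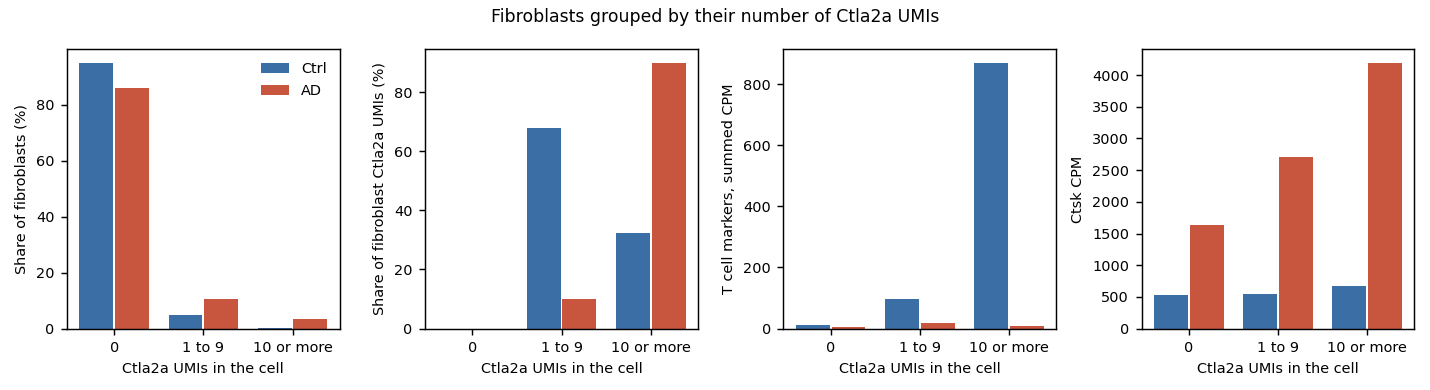
Fibroblasts grouped by their own number of Ctla2a UMIs (x axis), with Ctrl in blue (5860, 295 and 13 cells from left to right) and AD in red (4088, 496 and 162 cells). The panels give the share of fibroblasts, the share of the Ctla2a UMIs of fibroblasts, the summed CPM of the 8 T cell markers and the CPM of Ctsk. The cells with 10 or more UMIs held 90.0% of the fibroblast Ctla2a in AD and 32.2% in Ctrl, and T cell markers stood at 871 CPM in those of Ctrl.

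The AD cells rich in Ctla2a were spread unevenly over the fibroblast subsets, which were gated by 2 or more markers and a lead of 1. They were 84 of 1216 reticular preadipocyte-like fibroblasts (6.91%), 13 of 399 peri-follicular (3.26%), 23 of 1160 interstitial (1.98%) and 1 of 572 Areg-like (0.175%), and 41 were in no subset. Ctla2a stood at 21.3 CPM in Ctrl against 536 in AD in the reticular preadipocyte-like cells (log2 ratio 4.65, 4.11 to 5.26). It stood at 8.50 and 325 CPM in the peri-follicular cells (5.26, 4.86 to 5.69) and at 17.2 and 129 CPM in the interstitial cells (2.91, 2.76 to 3.06). In the Areg-like cells it stood at 3.23 CPM from 2 UMIs and at 25.1 CPM from 92 UMIs (2.95, 1.06 to 6.02). The AD library was therefore higher in each of these 4 subsets. The subsets differed in size between the libraries, interstitial cells from 3096 to 1160 and reticular preadipocyte-like cells from 166 to 1216. With these 4 subsets and the ungated cells weighted in both libraries by their share of Ctrl UMIs, the log2 ratio of Ctla2a was 3.54. The Acta2 subset (435 and 12 cells) and the follicle mesenchyme subset (479 and 16 cells) were left out of this value.

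**Figure D3:**
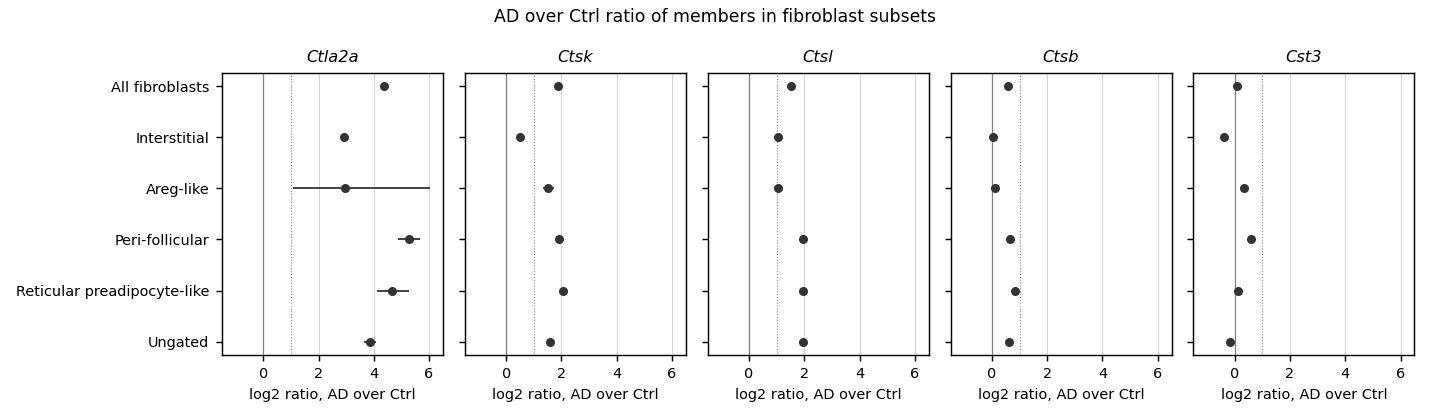
Log2 ratio of AD over Ctrl (x axis) of 5 members in all fibroblasts, in the 4 subsets with at least 50 cells in both libraries and in the ungated cells, with conditional binomial 95% intervals for counting error. The dotted line marks 2-fold. Ctsk stood at 0.50 in interstitial and at 2.04 in reticular preadipocyte-like cells.

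In Ctrl skin, 46.9% of all Ctla2a UMIs came from T cells, 24.5% from unassigned cells and 15.5% from fibroblasts. In AD skin, 53.1% came from fibroblasts, 13.3% from T cells, 12.9% from blood endothelial cells and 10.8% from unassigned cells. T cells, 529 in Ctrl and 410 in AD, held Ctla2a at 1258 CPM (1209 to 1309) in Ctrl against 966 (930.3 to 1003) in AD, for a log2 ratio of -0.38 (-0.46 to -0.30). With Leiden clusters in place of the gate this ratio was 0.078. A Ctla2a UMI was seen in 53.7% of Ctrl and 64.4% of AD T cells at median depths of 3133 and 5856 UMIs, and in 35.2% and 37.0% after thinning.

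**Figure D4:**
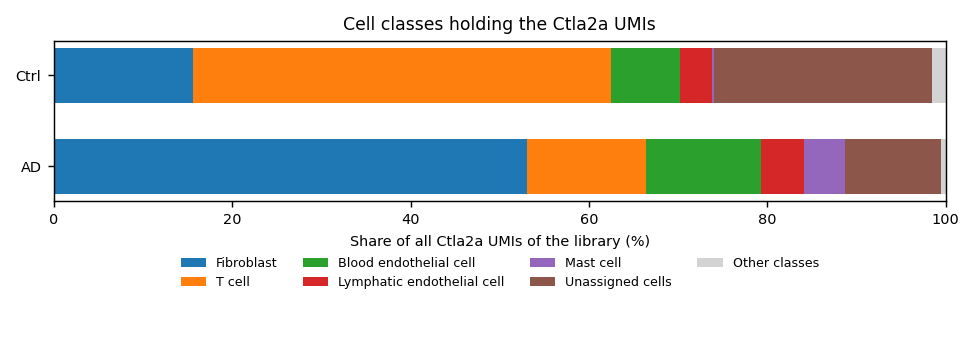
Share of all Ctla2a UMIs of a library (x axis, percent) held by each cell class, 1 bar for Ctrl (5280 UMIs) and 1 for AD (20525 UMIs). Fibroblasts held 15.5% in Ctrl and 53.1% in AD, and T cells 46.9% and 13.3%.

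Blood endothelial cells, 100 in Ctrl and 109 in AD, held Ctla2a at 604 CPM (548 to 666) in Ctrl against 2353 (2264 to 2444) in AD, for a log2 ratio of 1.96 (1.81 to 2.11). Of these cells, 61% had a UMI in Ctrl and 86.2% in AD, and 38.0% and 68.3% after thinning. A single AD cell held 492 of the 2650 UMIs. Lymphatic endothelial cells held it at 166 and 443 CPM (1.41, 1.19 to 1.65). Fibroblast markers in blood endothelial cells summed to 568 CPM in Ctrl against 553 in AD, and their part in the Ctla2a level was not tested. Among the 7 members that reached 10 CPM in blood endothelial cells, Ctla2a, Ctsk and Ctsl were at least 2-fold higher in AD and Cst6 at least 2-fold lower. Of all 9009 genes in these cells, 5.76% were higher and 15% lower, and nothing is read from the count of members. Without mixed cells Ctsk, Ctsl and Cst6 were no longer past 2-fold there, and the Ctla2a ratio was 1.36.

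Mast-gated cells had the highest Ctla2a level of any class in AD. The level was 46.1 CPM (24.5 to 78.8, 13 UMIs in 129 cells) in Ctrl against 3446 (3229 to 3675, 934 UMIs in 67 cells) in AD, for a log2 ratio of 6.23 (5.44 to 7.14). After the values were seen, the cells were split by UMIs of Mcpt8, a protease of basophils. The 47 AD cells without Mcpt8 held Ctla2a at 6431 CPM (6024 to 6857), with a UMI in 42 of them, while the 20 AD cells with Mcpt8 held 2 UMIs in all. In Ctrl, 128 of the 129 cells had no Mcpt8 and held all 13 UMIs (46.6 CPM). The highest AD cell held 371 of the 934 UMIs, and the share of cells with a UMI was 6.98% in Ctrl and 65.7% in AD, or 4.76% and 44.2% after thinning.

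Ctla2a was low elsewhere. Pericytes or vascular smooth muscle cells held 1 UMI in Ctrl and 6 in AD, Schwann cells 2 in each library and melanocytes 3 and 2. Macrophages stood at 2.24 CPM in Ctrl against 34.3 in AD, but 47 of the 63 AD UMIs came from 1 cell, and without mixed cells Ctla2a was not among the members past 2-fold in macrophages.

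Ctla2b, the paralog, was scarce among the counted UMIs, and how reads that match both copies were counted was not tested. It had 117 UMIs in the whole Ctrl library and 82 in the whole AD library, or 1.11 and 1.33 CPM. T cells held the largest part, 40.2% in Ctrl and 50% in AD, at 23.9 CPM (17.5 to 31.8) and 14.5 CPM (10.4 to 19.6). Fibroblasts held 3 UMIs in Ctrl and 6 in AD, which were too few for a comparison. Across 20 points, each a class with at least 50 cells in 1 library, the Pearson correlation of log2(CPM + 1) between the copies was 0.72, where points of 1 library share their depth and preparation.

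By the same measure, the genes most like Ctla2a among 8127 were Gabpb1 (r = 0.87), Znrf1 (0.86), Gimap1 (0.84), ENSMUSG00000121141 (0.84) and Gimap5 (0.83). In fibroblasts Gabpb1 stood at 25.2 CPM in Ctrl against 45.2 in AD, Znrf1 at 32.3 against 56.5, Gimap1 at 0.516 against 0.693, ENSMUSG00000121141 at 66.9 against 79.7 and Gimap5 at 0.620 against 0.559. Among fibroblasts of the AD library themselves, the 162 Ctla2a-rich cells held more Tnc, the matrix protein tenascin C (791 CPM against 139 CPM in cells without Ctla2a), Chl1 (456 against 94.5) and Cpxm1 (2497 against 613). They held less Fmod, the collagen-binding fibromodulin (1.85 against 242), less of the haemoglobin gene Hbb-bs (11.1 against 163) and less Coch (95.5 against 1046). These genes were named after their values were seen, as the ends of a ranking of 1858 genes. The 2 sets of cells differ in median depth, 11819.5 and 6801.5 UMIs, and in their mix of fibroblast subsets.

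Ctsk, which encodes the collagen-cutting cathepsin K, belonged to fibroblasts, which held 96.4% of its UMIs in Ctrl and 95.2% in AD. Its level in fibroblasts was 526 CPM in Ctrl against 1917 in AD, a log2 ratio of 1.87 (1.85 to 1.89). The ratio was small in interstitial cells, 532 and 750.0 CPM (0.50, 0.46 to 0.54). It was larger in Areg-like cells (345 and 984 CPM, 1.51), peri-follicular cells (690 and 2603 CPM, 1.92) and reticular preadipocyte-like cells (751 and 3087 CPM, 2.04). With the same subsets weighted by their share of Ctrl UMIs, the log2 ratio of Ctsk over fibroblasts was 1.14.

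Within AD fibroblasts, taken over all subsets, the level of Ctsk was higher in the cells with more Ctla2a. The cells rich in Ctla2a were spread unevenly over subsets that differ in Ctsk, and the comparison was not repeated within a subset. Ctsk stood at 1635 CPM in AD fibroblasts without Ctla2a, at 2712 CPM in those with 1 to 9 Ctla2a UMIs and at 4196 CPM in those with 10 or more. In Ctrl the 3 levels were 524, 541 and 667 CPM. After thinning to 1000 UMIs, AD fibroblasts with Ctla2a (248 cells) had 3.08 Ctsk UMIs each on average and those without (4402 cells) had 1.46, while Ctrl fibroblasts had 0.455 and 0.516. In the same thinned AD cells Ctsb stood at 1.04 with and 0.736 without Ctla2a, Ctsl at 1.67 and 1.58, and Cst3 at 0.464 and 0.612.

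In the other classes with at least 50 cells in both libraries Ctsk was below its fibroblast level, and it was higher in AD in all of them except Schwann cells (41.2 and 33.3 CPM), for example at 38.4 CPM in AD keratinocytes (log2 ratio 2.36), 17.9 and 53.9 CPM in macrophages and 17.6 and 108 CPM in lymphatic endothelial cells. In keratinocytes 92 of the 203 AD UMIs came from 1 cell. Melanocytes, 66 in Ctrl and 44 in AD, stood at 16.5 and 578 CPM, with 88 of the 102 AD UMIs in 1 cell, and the 45 AD neutrophils stood at 134 CPM from 22 UMIs. The summed fibroblast markers stood at 558 and 188 CPM in keratinocytes and at 618 and 301 CPM in macrophages. In fibroblasts themselves these markers were also lower in AD, 43146 and 12351 CPM, while Ctsk was 3.65-fold higher. The part of free RNA in the Ctsk levels of other classes was not tested. Without mixed cells, Ctsk was not among the members past 2-fold in keratinocytes or macrophages.

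Ctsl, which encodes a target of CTLA2 alpha, was higher in AD in each of the 9 classes with at least 50 cells in both libraries. In fibroblasts it stood at 560.0 CPM in Ctrl against 1601 in AD (log2 ratio 1.52), and was detected in 88.1% and 97.0% of them (thinned: 40.6% and 73.9%). Its subset ratios ranged from 1.04 in interstitial and Areg-like cells to 1.96 in reticular preadipocyte-like cells. It stood at 101 and 326 CPM in keratinocytes (1.69, 1.59 to 1.78), at 214 and 651 CPM in blood endothelial cells (1.61, 1.35 to 1.87) and at 139 and 589 CPM in pericytes or vascular smooth muscle cells (2.09, 1.77 to 2.42). T cells stood at 36.6 and 106 CPM (1.53, 1.15 to 1.92). The largest ratio among classes with at least 50 cells in both libraries was in Schwann cells, 206 and 1595 CPM (2.95, 2.61 to 3.31). In blood endothelial cells the log2 ratio was 0.82 without mixed cells.

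Ctsb was higher in AD in fibroblasts and lower in AD in macrophages. In fibroblasts it stood at 547 CPM in Ctrl against 824 in AD (log2 ratio 0.59, 0.57 to 0.61). This difference was near 0 in interstitial cells (647 and 669 CPM, 0.048, 0.0063 to 0.089) and 0.84 in reticular preadipocyte-like cells (575 and 1031 CPM). In macrophages, which had its highest level, it stood at 3839.5 CPM in Ctrl against 2180.2 in AD (-0.82, -0.87 to -0.76). With Leiden clusters in place of the gate the macrophage ratio was -0.16, so its size depends on which cells are called macrophages.

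Ctss, the cathepsin of antigen-presenting cells, was held mainly by macrophages, with 53.0% of its UMIs in Ctrl and 74.6% in AD, while unassigned cells held 34.0% and 12.7%. It stood at 1422 CPM (1373 to 1473) in Ctrl against 2174 (2107 to 2243) in AD in macrophages, a log2 ratio of 0.61 (0.54 to 0.68). Dendritic cells, 23 in Ctrl and 29 in AD, stood at 600.3 and 565 CPM, a difference within counting error (-0.088, -0.42 to 0.25). In fibroblasts it stayed under the minimum, at 8.04 and 5.65 CPM.

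Of the 7 members that reached 10 CPM in macrophages, Ctsl (359.6 and 766 CPM), Ctla2a and Ctsk were at least 2-fold higher in AD, and Cst3 and Cst6 were at least 2-fold lower. Of all 8359 genes, 6.07% were higher and 10.2% lower. Ctla2a reached the minimum only in AD (34.3 CPM, against 2.24 in Ctrl) and Cst6 only in Ctrl (30.9 CPM, against 1.63 in AD). Nothing is read from the count of members. Macrophages numbered 454 in Ctrl and 220 in AD, with median depths of 4587 and 7374.5 UMIs.

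Cst3, cystatin C, stood at 2681 CPM in Ctrl macrophages (2614 to 2750.3) and at 1166 CPM in AD macrophages (1117 to 1216), a log2 ratio of -1.20 (-1.27 to -1.13). It was detected in 95.6% and 90% of them, and in 83.6% and 58.7% after thinning. Over all fibroblasts it was nearly level, 567 and 590.5 CPM (0.060, 0.035 to 0.084), and the ratio was -0.026 with all deposited barcodes. The subsets differed in sign. The log2 ratio was -0.39 in interstitial, 0.32 in Areg-like, 0.57 in peri-follicular and 0.11 in reticular preadipocyte-like cells. With subsets weighted by their share of Ctrl UMIs it was -0.14. Dendritic cells had the highest level, 12762 and 16154 CPM (0.34, 0.27 to 0.41). In Schwann cells it stood at 639.7 CPM in Ctrl against 2439 in AD (1.93, 1.72 to 2.14). Blood endothelial cells stood at 2021 and 2005 CPM, a difference within counting error (-0.011, -0.11 to 0.086).

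Cst6, cystatin E/M, came mainly from keratinocytes, with 58.3% of its UMIs in Ctrl and 85.5% in AD, and most of the rest from unassigned cells. Over all kept cells it stood at 795 CPM in Ctrl against 109 in AD, with 1376 keratinocytes in Ctrl and 368 in AD. In bulk over all cells, fewer keratinocytes and less Cst6 RNA per keratinocyte cannot be told apart. Within keratinocytes it stood at 2504 CPM in Ctrl against 1089 in AD (log2 ratio -1.20, -1.24 to -1.16), and was detected in 41.6% and 19.8% of them (thinned: 18.8% and 7.23%).

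This keratinocyte difference was not stable. The top 10% of keratinocytes held 95.1% of the Cst6 UMIs of the class in Ctrl and 98.9% in AD. With every cell weighted equally the log2 ratio was 1.00, after thinning it was 0.32 and without mixed cells it was -2.31. In Ctrl, 273 keratinocytes had more UMIs of the suprabasal keratins Krt1 and Krt10 than of the basal Krt5 and Krt14, and they held Cst6 at 5962 CPM. In AD there were 2 such cells. In the remaining keratinocytes, a split added after the values were seen, Cst6 stood at 1303 CPM (1103 cells) in Ctrl against 987 (366 cells) in AD, for a log2 ratio of -0.40.

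Of the 5 members that reached 10 CPM in keratinocytes, Ctsk and Ctsl were at least 2-fold higher and Cst6 at least 2-fold lower, where 5.2% of all 9227 genes were higher and 10.5% lower. Ctsb stood at 254 and 284 CPM (0.16, 0.078 to 0.25). Cst3 stood at 467 and 289.6 CPM (-0.69, -0.77 to -0.61). Without the keratinocytes led by Krt1 and Krt10 the Cst3 ratio was -0.37 and that of Ctsl 1.75.

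Cst6 was also lower in AD in every other class with at least 50 cells in both libraries, among them fibroblasts (46.1 and 9.56 CPM, -2.27), T cells (40.6 and 8.13 CPM) and lymphatic endothelial cells (199.6 and 8.51 CPM, with 161 of the 227 Ctrl UMIs in 1 cell). With Leiden clusters the fibroblast ratio was -0.80, no longer past 2-fold. Keratinocyte markers moved with it. Their sum was 465 CPM in Ctrl against 49.6 in AD in fibroblasts, 748 and 65.0 CPM in T cells and 546 and 31.6 CPM in macrophages, and their part in the Cst6 levels was not tested. In melanocytes 1383 of the 1407 Ctrl UMIs came from 1 cell.

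Of 40 further genes (10 cathepsins, legumain, 11 inhibitors and 18 lysosomal genes), 28 reached 10 CPM in fibroblasts, and 2 of them were at least 2-fold higher and 3 at least 2-fold lower. Their median log2 ratio was -0.12, against -0.10 for all 9254 genes, of which 6.68% were higher and 13.5% lower. Lgmn, the protease that can process cathepsins, stood at 57.8 CPM in Ctrl against 199.7 in AD (1.79). Ctsh, an aminopeptidase, stood at 197 and 68.4 CPM (-1.52) and Hexa, which encodes a lysosomal enzyme chain, at 112 and 41.8 CPM (-1.42).

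In macrophages 29 of the 40 reached the minimum, 2 higher and 5 lower, with a median of -0.09. For all 8359 genes the median was -0.05, with 6.07% higher and 10.2% lower. Ctsc, which activates serine proteases of granules, stood at 1109 CPM in Ctrl against 375 in AD (-1.56). Hexa (426 and 121 CPM) and the serpin Serpinb6a (358 and 121 CPM) were lower too. In keratinocytes 26 reached it, 4 higher and 2 lower, with a median of -0.088 against -0.13 for all 9227 genes, of which 5.2% were higher and 10.5% lower. Stfa1, a stefin, stood at 25.5 CPM in Ctrl against 153 in AD (2.59), Ctsh at 33.6 and 75.9 CPM and Scarb2, the receptor that carries glucocerebrosidase to the lysosome, at 58.7 and 138 CPM. In blood endothelial cells 28 reached it, 3 higher and 2 lower, with a median of 0.0094 against -0.21 for all 9009 genes, of which 5.76% were higher and 15% lower. The 3 were Ctsc (27.8 and 62.1 CPM), Neu1 (64.4 and 144.7 CPM) and Serpina3g, a serpin with 0 UMIs in Ctrl and 57 in AD.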

How the data were processed

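Dorsal skin was profiled in 1 Ctrl and 1 AD library with 10x 3′ v3.1 chemistry. The authors deposited UMI counts per gene and barcode, not normalized, on mm10. The matrix header names Cell Ranger 5.0.0, and the submitters' processing notes name Cell Ranger 3.1.0 and Seurat 5.0, so the version is uncertain. A barcode was kept if it had from 200 to 6000 genes and no more than 10% of its UMIs from mitochondrial genes, which removed 9.52% of 12598 Ctrl barcodes and 6.82% of 8778 AD barcodes.

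Cells were assigned by the number of marker genes with a UMI. Levels are summed UMIs per 1000000 UMIs of the same cells (CPM), so cells with more UMIs weigh more, and a change in a few abundant genes shifts all others. Log2 ratios are of these CPM. For counts past 2-fold 1 CPM was added, over genes that reached 10 CPM in one of the libraries. For the rankings of 2062 and 1858 genes 1 CPM was added too, over genes that reached 100 CPM on either side of the comparison. Shares were repeated after 1 draw of 1000 UMIs per cell, which left out shallower cells. Intervals are exact at 95% and cover counting error only. With 1 library per group no test was made. The ratios and intervals were tested on simulated Poisson counts, and the gate and thinning on small constructed counts. The simulated counts hold no spread between cells, so they do not test the intervals for genes held by few cells.

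The members, marker lists, pathway lists and comparisons were chosen with earlier results of these data known. The text names all 8 members, pathway genes past 2-fold with at least 50 CPM (except an item that is not reported here), and the 5 genes most correlated with Ctla2a. Genes at the ends of the ranking of Ctla2a-rich fibroblasts, and the splits by Mcpt8, T cell markers and keratins, were chosen after the values were seen. Sequences came from RefSeq (GRCm38.p6) and GENCODE M21. An identifier named in the text is absent from M21, so the authors counted with another gene set. Alternatives were other cell filters, gates, Leiden clusters (2000 variable genes without the members, 30 components, 15 neighbours, 32 clusters), scalings and depths. Python 3.11.15, NumPy 2.4.6, SciPy 1.17.1, pandas 2.3.3, scanpy 1.11.5, leidenalg 0.10.2, scikit-learn 1.9.0, Biopython 1.88 and matplotlib 3.10.9 were used.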

Additional observations from a re-analysis of the deposited data

How the results depend on the processing

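No paired analysis was possible because each condition has 1 library and the labels give no replicate numbers. The Ctla2a log2 ratio in fibroblasts stayed between 3.64 and 4.82 under 10 planned and 2 added alternatives. Leaving out the low-value filter cannot change the ratio of a single gene, and centring shifts all genes alike. With subsets weighted by their share of Ctrl UMIs, which is not among these alternatives, the ratio was lower, at 3.54. It was 4.82 without mixed cells, 4.68 with Leiden clusters, 3.72 with the mean of each cell's CPM, 4.47 when centred on the median ratio, 3.64 with 10 CPM added, 4.07 after thinning, 4.78 without fibroblasts with a T cell marker UMI and 4.21 without those with a keratinocyte marker UMI. The last 2 were chosen after seeing the data. In blood endothelial cells it was 1.36 without mixed cells, 2.13 with Leiden clusters and 2.17 when centred. The other alternatives for both moved it by less than the counting interval.

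In the main setting, 6.68% of all genes were at least 2-fold higher and 13.5% at least 2-fold lower in fibroblasts. These shares were 6.07% and 10.2% in macrophages and 5.2% and 10.5% in keratinocytes. They were not computed under the alternatives, so the counts below show only which members passed. Members past 2-fold in fibroblasts numbered 4, or 3 with Leiden clusters, where Cst6 dropped out. In macrophages they numbered 5, and 3 without mixed cells, where Ctla2a and Ctsk dropped out, and 4 with Leiden clusters (without Ctsk) or after thinning (without Ctsl), and 6 with no low-value filter, where Ctla2b joined the lower members. In keratinocytes they numbered 3, or 2 with all barcodes, without mixed cells, after thinning and without cells led by Krt1 and Krt10. Signs turned for Cst6 in keratinocytes (1.00 with the mean of each cell's CPM, 0.32 after thinning), for Ctla2a in T cells (0.078 with Leiden clusters) and for Cst3 in fibroblasts (-0.026 with all barcodes, -0.038 without cells with a keratinocyte marker UMI). The cause was not tested. Intervals reflect depth alone, and differences between mice were not measured. Ctla2b in fibroblasts had too few counted UMIs for a ratio.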
